A study of Mus musculus with 6 samples.

Results

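Cytosolic chaperones of the HSP70, HSP90 and HSP40 families were examined in C2C12 cells, an established mouse myoblast line that can fuse into myotubes, after siRNA against huntingtin (Htt). The members were 10 named genes, namely Hspa1a, Hspa1b, Hspa8, Hsph1, Hsp90aa1, Hsp90ab1, Dnaja1, Dnajb1, Dnajb6 and Bag3. A gene was measured through its brightest probe set among those that the array's annotation ties to that symbol alone. This gave values for 8 of the 10 members, out of 22180 genes measured in all. Dnaja1 was listed only on a probe set with several symbols, and Hsp90ab1 had 0 listed probe sets, so neither is given a value.

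Each of the 6 Affymetrix arrays carried total RNA of 1 C2C12 sample. In 3 samples the cells had been transfected with a pool of siRNAs against Htt (the labels write HTT KO, while the treatment text describes siRNA pools), and in 3 with scramble siRNA as the control. The groups share the line and the standard growth medium, the labels name no altered allele in either, and a time after transfection is not given in the sources used here. Nothing states that replicates are separate cultures, so the error behind each p-value is the variation among these arrays and could be technical. Values are RMA log2 expression levels, and a log2 fold change is Htt siRNA minus scramble.

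Cells use these chaperones to fold new proteins and to keep damaged ones from clumping. HSP70 proteins grip and release exposed stretches of a client by hydrolysing ATP, HSP40 proteins (the DNAJ family) bring clients and start that hydrolysis, and exchange factors such as HSP110 and the BAG proteins reset the cycle. HSP90 takes over clients that are nearly folded, such as kinases and steroid receptors, and in muscle cells also myosin. The stress-inducible members are switched on by heat shock factor HSF1, which binds repeats of the bases GAA and their complement TTC in promoters. Several members, among them DNAJB1, DNAJB6 and the HSP110 protein of Hsph1, are known for restraining the clumping of expanded huntingtin. The Htt of C2C12 cells is the normal mouse gene.

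The promoters show how close the stress-inducible HSP70 genes are to each other, and where HSF1-type letters lie in genes that did and did not vary here. Sequences are from RefSeq (GRCm38.p6), in windows of 250 bases before a gene's start, and were held for 7 of the 10 members. No window was held for Hspa8, Hsp90aa1 or Hsp90ab1, so these were not searched. Capitals mark the heat shock letters searched on both strands. Searched were the pairs GAANNTTC and TTCNNGAA (N is any base) and, as the longer form that contains 2 overlapping pairs, the triplets GAANNTTCNNGAA and TTCNNGAANNTTC. Hspa1a (chr17:34972157-34972406, minus strand) and Hspa1b (chr17:34959239-34959488, minus strand) are shown over the whole 250 bases. Hsph1 (chr5:149636337-149636436, minus strand) and Dnajb6 (chr5:29735798-29735897, plus strand) are shown over the last 100 bases before their first listed start.
Hspa1a: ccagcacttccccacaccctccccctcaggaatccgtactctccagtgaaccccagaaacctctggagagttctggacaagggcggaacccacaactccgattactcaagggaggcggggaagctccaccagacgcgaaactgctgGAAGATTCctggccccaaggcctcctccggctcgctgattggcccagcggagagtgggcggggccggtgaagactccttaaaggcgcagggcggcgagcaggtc
Hspa1b: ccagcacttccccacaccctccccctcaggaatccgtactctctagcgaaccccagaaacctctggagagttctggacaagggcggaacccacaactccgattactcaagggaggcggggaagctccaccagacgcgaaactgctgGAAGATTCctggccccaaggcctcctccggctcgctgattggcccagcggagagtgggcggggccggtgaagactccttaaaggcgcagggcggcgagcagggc
Hsph1: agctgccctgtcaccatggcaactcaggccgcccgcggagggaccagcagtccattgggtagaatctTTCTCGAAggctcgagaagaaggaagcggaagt
Dnajb6: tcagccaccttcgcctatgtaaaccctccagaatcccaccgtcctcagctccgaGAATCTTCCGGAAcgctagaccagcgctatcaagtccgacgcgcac

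The Hspa1a and Hspa1b windows differed at 3 of 250 bases (98.8% identical), and each held 1 pair, with the same letters, from base -104 to base -97 counted from the start. Hsph1 held 1 pair from base -33 to base -26. Dnajb6 held a triplet from base -46 to base -34. Some members have several listed starts, so the 7 members had 12 windows. A pair occurred before the start in 7 of the 12, those of the 4 genes shown and 1 of the 3 of Dnaja1. By gene, 5 of the 7 members had a pair. The Hsph1 windows overlap and hold the same pair before the start, the Dnajb6 windows overlap too, and Hspa1a and Hspa1b are near copies. The 12 windows are thus not separate. Their count cannot be set against the share of all 32851 windows with a pair, 12.8%. A triplet occurred before the start in the Dnajb6 windows, the same site in both, and in 0.466% of all windows. In the 50 bases after the start, which are not shown, Hsph1 held a triplet from base 37 to base 49 of its first start (base 16 to base 28 of its second) and Bag3 a pair from base 43 to base 50. In Dnajb1 these letters were on neither side. The shares of all windows cover only the bases before the start. Such a match is a description of letters and not of a bound site.

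The knockdown itself was visible in every sample. Htt read 4.49, 4.47 and 4.65 after Htt siRNA and 5.59, 5.60 and 5.72 after scramble siRNA, a remainder of 46.6% (95% confidence interval 40.2 to 53.9%). Its limma p was the smallest of all genes, with an adjusted p = 0.0559 just outside the threshold of 0.05. All 10 myoblast markers had means above the median gene (2.95), led by Des and Chrna1, while 0 of 7 endothelial and 0 of 6 adipocyte markers did. The dimmest of the 10, Pax7, lay near it (3.18 with Htt siRNA and 3.25 with scramble). Some markers of other lists were brighter than Pax7, such as Tubb3 (7.13 and 7.22), Gap43 (5.2 and 5.12) and Krt19 (4.53 and 4.96). The immune markers (3 of 7 above the median gene) averaged 2.78 to 2.82 with Htt siRNA and 2.82 to 2.89 with scramble, the epithelial markers (4 of 6) 3.19 to 3.35 and 3.28 to 3.48, and the neuron and glia markers (3 of 8) 3.48 to 3.77 and 3.57 to 3.60. The myoblast markers averaged 7.73 to 8.0 with Htt siRNA and 7.19 to 7.54 with scramble, with 6 of 10 higher without overlap (10.1% of all genes were) and 4 of 10 higher at an unadjusted p under 0.05 (5.72% of all genes). Myog, which encodes the differentiation factor myogenin, had the list's largest log2 fold change. It read 7.73, 6.22 and 7.71 with Htt siRNA and 4.53, 3.97 and 5.11 with scramble (2.68 ± 0.44, SE; limma adjusted p = 0.169). The part of these markers in the chaperone values was not tested.

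No chaperone member passed the threshold, and the fold changes of most were small. Of the 8 measured members, 7 had negative fold changes and Bag3 had a positive one. Their median log2 fold change was -0.14, against 0.03 over all 22180 genes and -0.01 over the 11090 genes above the median level, which hold all 8 members. Negative fold changes made up 41.8% of all genes and 52.5% of that brighter part. Limma called 0 of 8 members at an adjusted p under 0.05, where it called 0% of all genes (0 of 22180). The smallest adjusted p among the members was 0.448. At an unadjusted p under 0.05, 1 of 8 members was lower (Hsph1) and 0 were higher, against 5.14% of all genes lower and 5.72% higher, or 10.9% in either direction. That count was 3 lower without scramble replicate 1, 2 without Htt siRNA replicate 2, and 0 without any other single array. The shares of all genes above belong to the fit with all arrays and not to these refits. The refits differ, with 540 genes called at the adjusted threshold without Htt siRNA replicate 2, so these counts cannot be set against those shares.

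**Figure D1:**
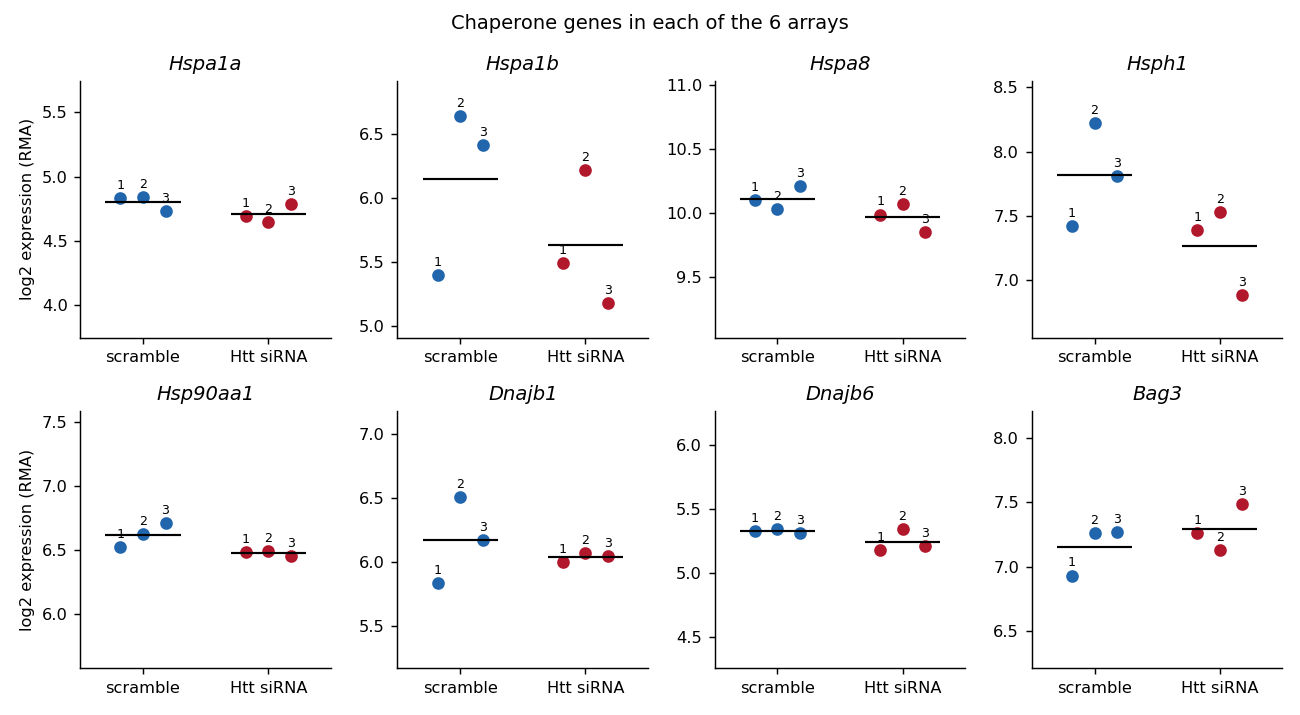
Log2 expression (RMA, vertical axis, 2 log2 units in every panel) of the 8 measured chaperone genes in scramble (blue) and Htt siRNA (red) arrays; numbers are replicate numbers and bars are group means of 3 arrays. Hspa1b and Hsph1 spread over 1.46 and 1.34 log2 units, while Hspa1a and Dnajb6 stay within 0.18 and 0.16.

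The inducible HSP70 gene Hspa1b varied more than any other member. Hspa1b makes the HSP70 protein that is scarce in resting cells and abundant after heat. It read 5.49, 6.22 and 5.18 after Htt siRNA (replicates 1, 2 and 3) and 5.40, 6.64 and 6.41 after scramble siRNA (same order, used for every gene here). Scramble replicate 1 thus sat among the low arrays and Htt siRNA replicate 2 beside the high ones, and the groups overlapped. The means were 5.63 ± 0.53 with Htt siRNA and 6.15 ± 0.66 with scramble (SD, n = 3 each). The log2 fold change was -0.52 ± 0.36 (SE; limma adjusted p = 0.636), or 69.6% of the scramble level with a 95% interval of 38.9 to 124%. The pooled SD within groups, 0.60, was larger than that of 98.3% of genes above the median level.

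Its near-identical neighbour Hspa1a gave a flat reading. Hspa1a encodes essentially the same protein from a second gene copy. It read 4.69, 4.65 and 4.79 with Htt siRNA and 4.83, 4.84 and 4.73 with scramble, overlapping at the third replicate of each. The log2 fold change was -0.09 ± 0.08 (limma adjusted p = 0.742), an interval of 82.1 to 108% of the scramble level. The within-group SD of 0.07 was larger than that of 5.0% of genes above the median level. Because probes for such close copies can share signal, and 1 further probe set lists both symbols and was not used, how the 2 copies divide the total is uncertain.

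Hspa8, the constitutive HSP70 (also called Hsc70) that serves everyday folding and clathrin uncoating, was among the brightest probe sets on the array. Its mean over the 6 arrays, 10.04, lay above that of 99.6% of genes. The Htt siRNA arrays read 9.99, 10.07 and 9.85 and the scramble arrays 10.10, 10.03 and 10.21. Only Htt siRNA replicate 2 reached into the scramble range. The log2 fold change was -0.14 ± 0.10 (limma adjusted p = 0.624), or 90.5% of the scramble level (95% interval 77.5 to 106%).

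The array held 3 further probe sets for Hspa8 alone, and they did not read the same. Probe set 17434475 gave 8.62, 9.18 and 9.09 with Htt siRNA and 9.12, 9.08 and 9.27 with scramble. Probe set 17548379 gave 7.76, 8.81 and 8.94 against 8.66, 8.70 and 9.26. Probe set 17548744 gave 7.76, 8.80 and 8.80 against 8.67, 8.67 and 9.27. On all 3 of these, Htt siRNA replicate 1 was the lowest array and scramble replicate 3 the highest, whereas on the brightest probe set (17516365) the lowest was Htt siRNA replicate 3. Log2 fold changes ran from -0.42 to -0.14 over the 4 probe sets. With their mean as the gene's value, the log2 fold change was -0.28 (limma adjusted p = 0.646).

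**Figure D2:**
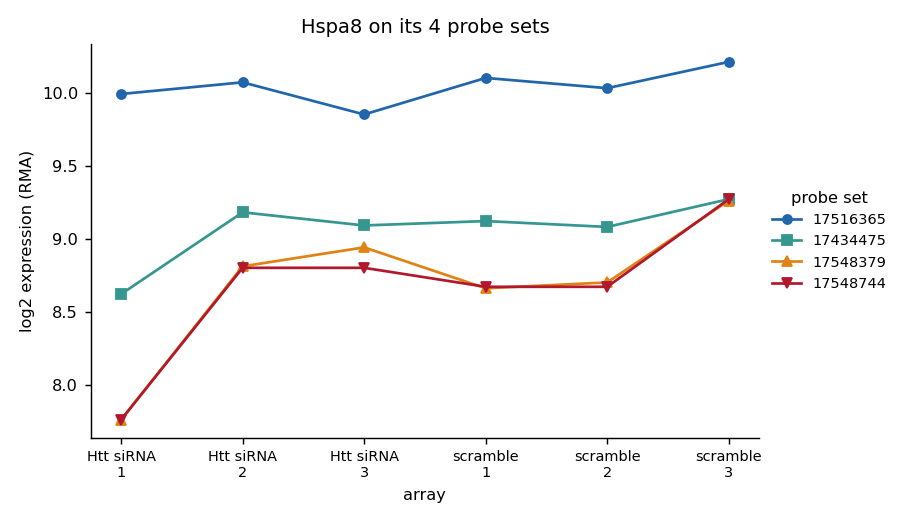
Log2 expression (RMA, vertical axis) of Hspa8 on its 4 single-symbol probe sets in the 6 arrays (horizontal axis); lines only join the readings of 1 probe set. Probe sets 17548379 and 17548744 drop to 7.76 in Htt siRNA replicate 1, where the brightest, 17516365, reads 9.99.

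Hsph1 and Bag3 act on HSP70 as exchange factors. Hsph1 encodes HSP110 (also HSP105), a relative of HSP70 that resets it and helps to pull proteins out of aggregates. Its level was 7.39, 7.53 and 6.88 with Htt siRNA and 7.42, 8.22 and 7.81 with scramble. In 2 of 3 Htt siRNA arrays it was below every scramble array, and Htt siRNA replicate 2 lay between scramble replicates 1 and 3. The means were 7.27 ± 0.34 and 7.82 ± 0.40 (SD, n = 3), a log2 fold change of -0.55 ± 0.23 or 68.3% of the scramble level (95% interval 47.2 to 98.9%). The unadjusted limma p was 0.0451, rank 2231 of all genes, and the adjusted p = 0.448.

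Bag3 pairs HSP70 with the selective autophagy of damaged proteins and is needed for the upkeep of muscle Z-discs. It read 7.26, 7.13 and 7.49 with Htt siRNA and 6.93, 7.26 and 7.27 with scramble. Htt siRNA replicate 3 was the highest array and scramble replicate 1 the lowest, with the rest between 7.13 and 7.27. The log2 fold change was 0.14 ± 0.13 (limma adjusted p = 0.739), with an interval of 88.9 to 137% of the scramble level. It was 0.03 without scramble replicate 1 and 0.04 without Htt siRNA replicate 3.

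Hsp90aa1, the inducible cytosolic HSP90, was the 1 member whose groups did not overlap. It stood at 6.48, 6.49 and 6.45 with Htt siRNA and at 6.52, 6.62 and 6.71 with scramble. The gap between the highest Htt siRNA array and the lowest scramble array was narrow. The log2 fold change was -0.14 ± 0.09 (limma adjusted p = 0.579), or 90.5% of the scramble level (95% interval 78.8 to 104%). Lower values without overlap were found for 1 of 8 members and for 5.91% of all genes.

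The DNAJ members gave small differences. Dnajb1, the main heat-inducible HSP40, read 6.0, 6.07 and 6.05 with Htt siRNA and 5.84, 6.51 and 6.17 with scramble. Every Htt siRNA array fell inside the scramble range, which scramble replicates 1 and 2 set at its ends. The log2 fold change was -0.13 ± 0.16 (limma adjusted p = 0.792), and without scramble replicate 2 it was 0.03. Dnajb6, a suppressor of polyglutamine aggregation that is mutated in a limb-girdle muscular dystrophy, read 5.18, 5.34 and 5.21 against 5.33, 5.34 and 5.31. Htt siRNA replicate 2 matched the scramble arrays and the others were lower. Its log2 fold change was -0.08 ± 0.08 (limma adjusted p = 0.753), an interval of 82.5 to 108% of the scramble level.

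**Figure D3:**
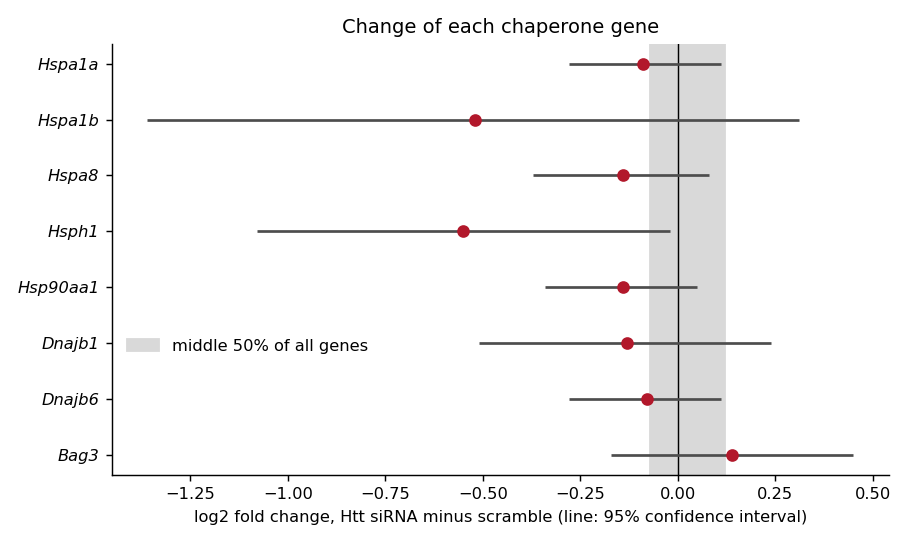
Log2 fold change (horizontal axis, Htt siRNA minus scramble, 3 arrays each) of the 8 chaperone genes with 95% confidence intervals from limma; the grey band holds the middle 50% of all 22180 genes, from -0.07 to 0.12. The interval of Hsph1, -1.08 to -0.02, is the 1 that does not reach 0 before adjustment.

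Across the arrays the members did not form 1 block. Scramble replicates 2 and 3 each had 7 of 8 members above the gene's own 6-array mean, while Htt siRNA replicate 1 had 7 of 8 below it and scramble replicate 1 had 5 of 8 below. Scramble replicate 2 was the highest array for 5 members and Htt siRNA replicate 3 the lowest for 4. Hspa1b and Hsph1 had profiles that differed by 0.22 on average once each was centred on its mean. Hspa1b and Hspa1a differed by 0.55, the widest of all pairs of members. The tight members Hspa8 and Hsp90aa1 differed by 0.06. This distance depends on the spread of each gene, which was 1.46 log2 units for Hspa1b and 0.18 for Hspa1a. It does not by itself measure whether 2 members move together.

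The arrays that were low in Hspa1b were high in chaperones of the endoplasmic reticulum (ER), which fold secreted proteins and are induced by a separate stress pathway. The mean of 17 ER chaperone genes was 9.18, 7.99 and 9.03 with Htt siRNA and 8.82, 7.98 and 8.17 with scramble. Hspa5 (BiP), the HSP70 of the ER and chosen after its values were seen, read 9.79, 8.29 and 9.74 against 9.57, 8.34 and 8.56. Htt siRNA replicates 1 and 3 and scramble replicate 1 thus held the 3 highest ER readings and the 3 lowest Hspa1b readings. With the ER chaperone level as a covariate, the log2 fold change of Hspa1b was -0.12 (limma adjusted p = 0.868) and that of Hsph1 -0.36 (0.54). The median over the 8 members was -0.11 in that fit and -0.14 without the covariate. In bulk RNA, fewer cells of a kind and less RNA per cell cannot be told apart, and the part of the ER response in the chaperone values was not tested.

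**Figure D4:**
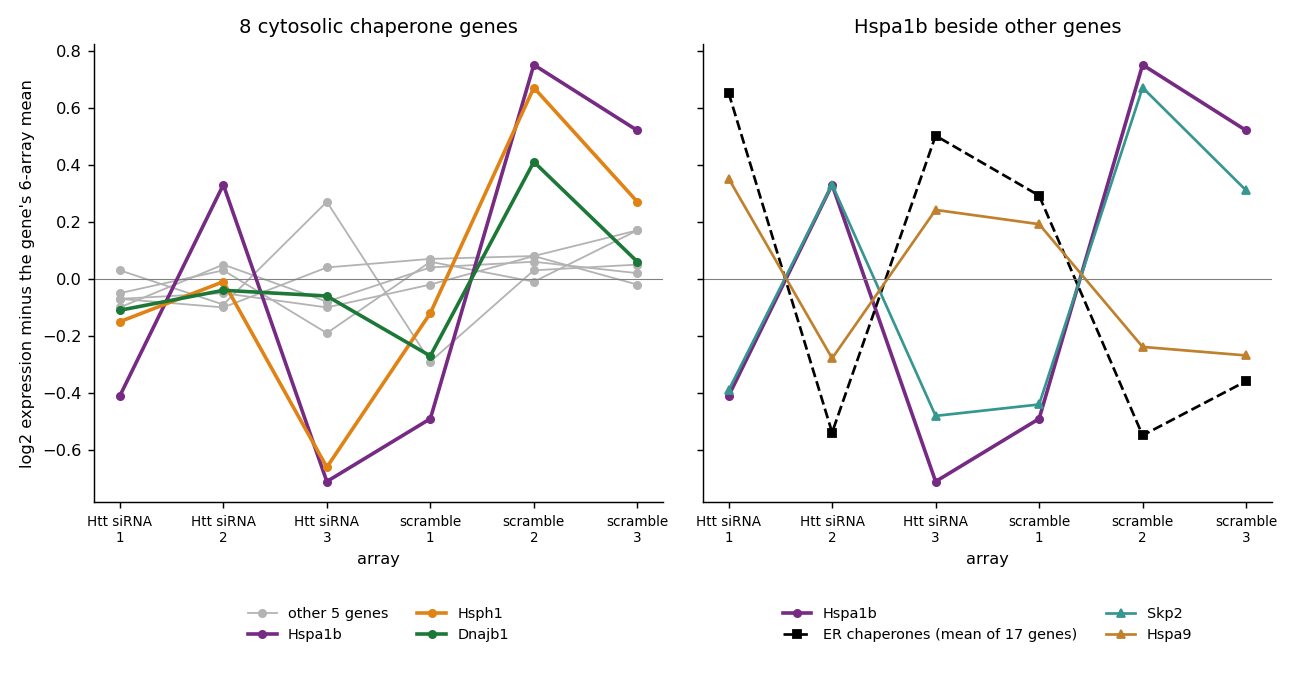
Log2 expression in each array minus the gene's 6-array mean (vertical axis) for the 8 chaperone genes (left) and for Hspa1b beside the mean of 17 ER chaperones, Skp2 and the mitochondrial HSP70 gene Hspa9 (right); lines only join the values of 1 gene. Hspa1b is at -0.41, -0.71 and -0.49 in Htt siRNA replicates 1 and 3 and scramble replicate 1, the arrays where the ER chaperones and Hspa9 are high.

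Genes whose profile was most like that of a member were ranked by the mean absolute difference of centred log2 values over the 6 arrays, among 11089 genes above the median level. For Hspa1b they were Skp2 (0.098), which targets cell cycle inhibitors for destruction, Lmnb1 (0.107), which encodes lamin B1, and Rpa2 (0.117), a single-stranded DNA binding subunit of replication. Skp2 read 6.66, 7.38 and 6.57 with Htt siRNA and 6.61, 7.72 and 7.36 with scramble, again low in scramble replicate 1 and high in Htt siRNA replicate 2. For Hspa8 the nearest were Arntl2 (0.012), Abcc5 (0.013) and Prrc2c (0.013), for Hsp90aa1 they were Zfp707 (0.019), Slk (0.020) and Minpp1 (0.020), and for Dnajb1 they were Pax7 (0.042), Hoxc12 (0.043) and Erc1 (0.050). The smaller distances of the last 3 members go with the smaller spread of those members. Pax7 (2.94 to 3.57 over the arrays), Hoxc12 (2.97 to 3.77) and Arntl2 (3.32 to 3.65) were dim, at levels not far from the median gene (2.95).

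The wider chaperone network was described through 7 further lists with 86 measured genes, which include the mitochondrial chaperones and leave out the ER chaperones. Of the 17 ER chaperones, 16 had positive fold changes, against 58.2% of all genes. Limma called 0 of these 17, and 0 had an unadjusted p under 0.05, against 10.9% of all genes. For 0 of them were the groups without overlap. Their mean level ran from 7.99 to 9.18 with Htt siRNA and from 7.98 to 8.82 with scramble. Limma called 0 of the 86 over all genes. At an unadjusted p under 0.05 it had 4 lower and 3 higher, shares no larger than the 5.14% and 5.72% of all genes. The median log2 fold change was -0.05, and 64.0% of the 86 were negative, against 52.5% of genes above the median level and 41.8% of all genes.

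Among partners of HSP90, 16 of 20 had negative fold changes (median -0.12), with 3 lower and 1 higher at an unadjusted p under 0.05, where 5.14% of all genes were lower and 5.72% higher. Among genes above the median level, 52.5% were negative. Rpap3, part of a complex that assembles RNA polymerases with HSP90, read 5.10, 5.17 and 5.28 with Htt siRNA and 5.36, 5.52 and 5.47 with scramble (log2 fold change -0.26 ± 0.09, limma adjusted p = 0.398). Ahsa1, the activator of the HSP90 ATPase (-0.29 ± 0.12), and Fkbp5, a glucocorticoid-induced immunophilin that was chosen after its value was seen (-0.27 ± 0.11), were the other lower genes, with limma adjusted p-values of 0.454 and 0.447. Unc45b, which folds muscle myosin together with HSP90, read 3.12, 3.08 and 3.18 with Htt siRNA and 2.83, 2.73 and 2.91 with scramble (0.30 ± 0.09, limma adjusted p = 0.363), at a level near the median gene. The brightest of the list, Cdc37, which hands kinases to HSP90, had a log2 fold change of -0.01.

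Of 11 HSP70 exchange factors and co-chaperones, 7 were negative (median -0.04). An unadjusted p under 0.05 was found for 0 of them and for 10.9% of all genes in either direction. Stip1 (HOP), which links HSP70 to HSP90, read 8.95, 9.33 and 8.94 with Htt siRNA and 9.21, 9.63 and 9.38 with scramble (-0.34 ± 0.15, limma adjusted p = 0.470). The BAG family member Bag4 had a log2 fold change of -0.31 ± 0.16 and St13, an HSP70 cofactor, one of -0.03. Among 7 other HSP70 and HSP110 genes, 6 were negative (median -0.04), with Hspa14 at -0.24 and Hspa4, a constitutive HSP110, at -0.04. Here too 0 had an unadjusted p under 0.05, against the same 10.9% of all genes.

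The 18 other HSP40 genes were split, with 8 negative and 10 positive (median 0.01). At an unadjusted p under 0.05, 2 were higher and 0 lower, against 5.72% and 5.14% of all genes. Dnajc7, which binds both HSP70 and HSP90, read 7.24, 6.95 and 7.17 with Htt siRNA and 6.81, 6.84 and 6.91 with scramble (0.27 ± 0.10, limma adjusted p = 0.424), and Dnajc27 had 0.22 ± 0.09. Dnaja2, a close relative of Dnaja1, had -0.19. The largest fold change of the list, chosen after its value was seen, was that of Dnajc9, a histone chaperone of dividing cells. It read 6.58, 7.72 and 6.80 with Htt siRNA and 7.26, 7.68 and 7.70 with scramble (-0.51 ± 0.28, limma adjusted p = 0.554). Without Htt siRNA replicate 2 its log2 fold change was -0.86 (limma adjusted p = 0.0421), in a refit that called 540 of all genes.

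The 18 HSF1 targets outside these families, 4 of which are also counted among the co-chaperones, had 15 negative fold changes (median -0.13). At an unadjusted p under 0.05, 2 were lower and 0 higher, against 5.14% and 5.72% of all genes, and 52.5% of genes above the median level were negative. Hspe1, the lid of the mitochondrial HSP60 chamber, read 7.53, 7.46 and 7.65 with Htt siRNA and 7.72, 7.89 and 7.77 with scramble (-0.25 ± 0.09, limma adjusted p = 0.417), and Ahsa1 was the other. The chaperonin subunits Cct2 and Tcp1, the brightest of the list, had -0.12 and -0.13. Of 7 heat shock factors and their binding proteins, 0 had an unadjusted p under 0.05, against 10.9% of all genes in either direction. Hsf2 had -0.15 and Hsbp1, which binds active heat shock factor, 0.17, while Hsf1 had 0 usable probe sets.

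**Figure D5:**
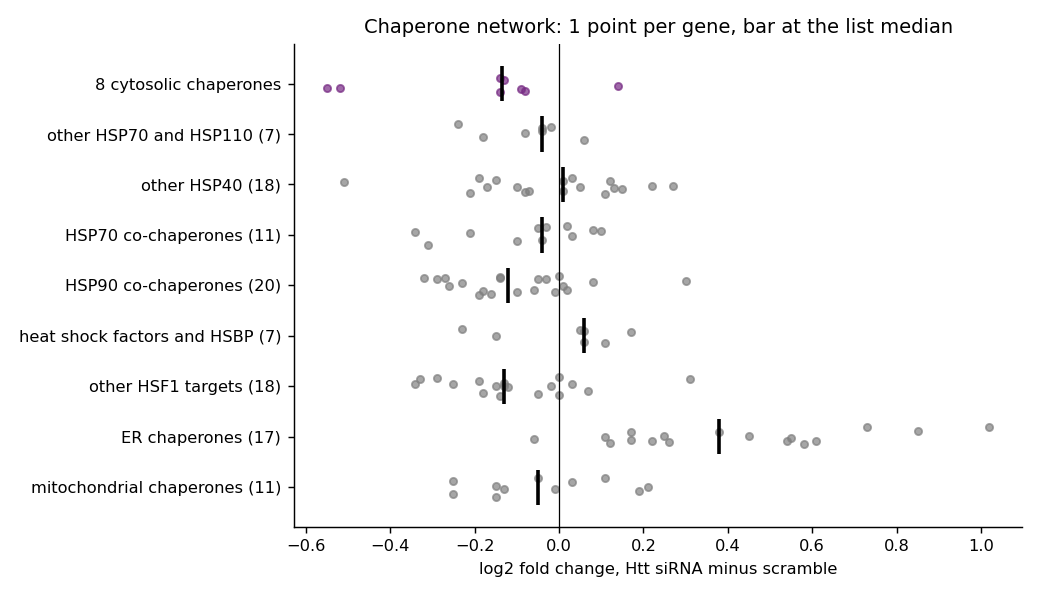
Log2 fold change (horizontal axis, Htt siRNA minus scramble) of each measured gene in the chaperone lists (rows, number of genes in brackets); the bar is the list median and the vertical scatter within a row has no meaning. The 8 cytosolic chaperones have a median of -0.14 and the 17 ER chaperones one of 0.38. Limma called 0 genes of either list.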

How the data were processed

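Total RNA of 6 C2C12 samples (3 Htt siRNA, 3 scramble) was measured on Affymetrix arrays. The authors deposited log2 values for 41345 probe sets; the submitters' processing notes name RMA and affy without versions, and a genome build is not given in the sources used here. RMA equalises the arrays' distributions, which hides changes in the amount of RNA per cell, and it compresses weak signals. Array medians lay between 2.59 and 2.67, and the number of arrays limits the precision.

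The platform annotation gave 1 symbol to 23521 probe sets, several to 1814 and none to 16010; 23328 matched a RefSeq table by Entrez identifier. The brightest probe set stood for each of 22180 genes. Differences were fitted across all genes with limma 3.58.1 in R 4.3.3 (lmFit, eBayes, group as the only term, two-sided, Benjamini-Hochberg adjustment over all genes, threshold 0.05, no filter on dim genes). The script was tested on simulated data, where it called 198 of 200 genes changed by 2 log2 units and 7 unchanged genes. That change is larger than any member's and than that of Htt (-1.1). The test therefore does not show how often changes of the size seen here would be called. Tables and plots used Python 3.11.15, pandas 2.3.3 and matplotlib 3.10.9.

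The members and lists were chosen with earlier results of these data known. All members are named, and of each list the 2 genes with the smallest p and the 2 brightest could be named. Alternatives were 8 other settings and leaving out each array. Same-numbered replicates were not treated as pairs in the reported fit. Their deviations from the group means correlated at 0.350, 0.364 and 0.006 (replicates 1, 2 and 3). Those of differently numbered arrays correlated at -0.431 to 0.223. Replicates 1 and 2 thus leaned towards pairing and replicate 3 did not, so these values do not settle whether the arrays are paired. A fit with the replicate number as a block was among the alternatives.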

Additional observations from a re-analysis of the deposited data

How the results depend on the processing

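Over the 14 alternatives, 0 of 8 members passed the adjusted threshold (smallest limma adjusted p = 0.229, for Hsph1 with the replicate block). The members' median log2 fold change stayed between -0.20 and -0.10. In 111 of 112 combinations of member and alternative the direction was kept; the exception was Dnajb1, from -0.30 to 0.03 when single arrays were left out. Hspa1b ran from -0.90 without scramble replicate 1 to -0.12 with the ER chaperone covariate, and Hsph1 from -0.75 without scramble replicate 1 to -0.35 without scramble replicate 2; the cause was not tested.

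The count of called genes over the whole table, 0 in the analysis as reported, was 12 with the ER chaperone covariate, 1 with array weights, 3 each with centred arrays, repeated quantile normalization and genes above the median level, 4 with a trended robust prior, and 98 with the replicate block, in which not every array correlated best with its own number. Leaving out single arrays gave 0 to 540 (540 without Htt siRNA replicate 2). Of the 86 network genes the same omissions called 0 to 1, the 1 being Dnajc9 (-0.86, adjusted p = 0.0421, against -0.51 and 0.554 with all arrays) without Htt siRNA replicate 2. Htt passed the threshold in 8 of 14 alternatives, with an adjusted p from 0.00778 to 0.348.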

Other observations

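The 11 mitochondrial chaperones had 7 negative and 4 positive fold changes (median -0.05), where 52.5% of genes above the median level were negative. Their mean was 6.62, 6.36 and 6.59 with Htt siRNA and 6.68, 6.48 and 6.53 with scramble. Single genes of this list differed in profile. Hspa9, the mitochondrial HSP70 that pulls imported proteins into the matrix, read 10.82, 10.19 and 10.71 with Htt siRNA and 10.66, 10.23 and 10.20 with scramble (replicates 1, 2 and 3). Its 3 highest arrays were thus the 3 with the highest ER chaperone level and the lowest Hspa1b. Its HSP40 partner Dnaja3, chosen after its values were seen, read 7.03, 5.98 and 6.92 against 6.72, 6.24 and 6.41, with the same 3 arrays on top. The mitochondrial HSP60 gene Hspd1 stayed within 0.18 log2 units over the 6 arrays. Between the groups, Hspa9 had a log2 fold change of 0.21 (limma adjusted p = 0.727) and Hspd1 one of -0.05. Of 11 mitochondrial chaperones 0 were called, as was the case over all genes. At an unadjusted p under 0.05, 1 was lower (Hspe1) and 0 were higher, against 5.14% and 5.72% of all genes. These readings come from the same 6 arrays, and the cause of the shared pattern was not tested.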
